A study of Mus musculus with 2 samples.

Results

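GATA4 occupied sites (OS) in the later introns of genes were described here from a ChIP-seq experiment on adult mouse liver. An OS was counted as a later-intron site when its midpoint lay more than 1 kb from the transcription start site (TSS) of every protein-coding transcript, inside intron 2 or later of the longest protein-coding transcript of a gene, and in the first intron of no such transcript. Of the 4409 OS of the common list, 1106 met this rule (25.1%, Wilson 95% interval 23.8 to 26.4). The rule used position only, so the sequence, list position and host genes of these sites were open to comparison. The other OS comprised 651 within 1 kb of a TSS, 609 in first introns, 210 in exons or in other transcripts of a gene, and 1833 outside protein-coding genes.

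The material was whole liver of C57BL/6 x Sv129 mice of postnatal 2-3 months, immunoprecipitated with the GATA4 C-20 antibody (Santa Cruz sc-1237), and input DNA of the same tissue that had received no antibody served as the background. No treatment or altered allele is named for either group. The labels list 1 ChIP and 1 input sample, and the methods describe replicates made of whole livers of several mice. The lists give 1 set of peaks for the series, the files hold no read counts, and the depth behind a single site is therefore unknown. No value here has a replicate error: sites, not animals, were the units of each test, and the intervals cover counting error only. Whole liver holds hepatocytes, sinusoidal endothelial cells, stellate cells, Kupffer cells and bile duct cells, and the cell in which a site was occupied cannot be told apart in these data.

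GATA4 is a zinc finger transcription factor that binds the hexamer WGATAR, in which W is A or T and R is A or G, on either strand. Its spellings are AGATAA and its variant AGATAG, together with TGATAA and its variant TGATAG. It is required early in liver formation, and in the adult organ it has been described in sinusoidal endothelial cells as well as in hepatocytes. Introns often hold enhancers, which act on the promoter of the gene they lie in or on that of a neighbour, and a site in a late intron can lie far from any promoter.

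The central 120 bp of 4 of the leading later-intron sites are shown first, each with 1 match in that stretch. Other leading sites differed: the central 120 bp held 0 matches in Pdlim5 (number 7) and 2 in Ypel2 (number 31). Each sequence is the plus strand of mm9, counted from 1, read 5′ to 3′, and the capitals mark WGATAR matches on either strand. Map3k3 encodes a kinase that activates MAP kinase cascades, Mosc2 a mitochondrial molybdenum enzyme, Bmper a secreted regulator of bone morphogenetic proteins (BMPs), and Ggnbp2 a gametogenetin-binding protein.
Map3k3 intron 6, chr11:105996656-105996775: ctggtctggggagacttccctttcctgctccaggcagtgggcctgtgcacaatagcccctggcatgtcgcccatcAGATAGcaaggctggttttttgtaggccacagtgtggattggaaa
Mosc2 intron 4, chr1:186651313-186651432: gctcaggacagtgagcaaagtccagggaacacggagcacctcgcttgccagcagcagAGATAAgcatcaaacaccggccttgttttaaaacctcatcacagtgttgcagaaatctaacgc
Bmper intron 13, chr9:23257796-23257915: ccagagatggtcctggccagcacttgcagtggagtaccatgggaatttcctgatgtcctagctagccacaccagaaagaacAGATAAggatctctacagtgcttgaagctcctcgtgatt
Ggnbp2 intron 2, chr11:84678866-84678985: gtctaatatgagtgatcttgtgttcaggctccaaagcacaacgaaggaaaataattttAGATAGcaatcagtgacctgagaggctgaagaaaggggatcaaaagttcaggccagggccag

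The sites with the most motifs stood at both ends of the list. Raly, which encodes an RNA-binding protein, held 6 matches in site number 4340, and Fndc7 (number 108), Aldh1a1 (number 269, a retinaldehyde dehydrogenase) and Mdh1 (number 4306, a malate dehydrogenase) held 5 each. The peaks in Raly and Mdh1 were 320 bp wide, that in Fndc7 267 bp and that in Aldh1a1 186 bp. Matches that share bases, as in Aldh1a1 and Fndc7, appear as longer runs of capitals.
Raly intron 2, chr2:154681135-154681434: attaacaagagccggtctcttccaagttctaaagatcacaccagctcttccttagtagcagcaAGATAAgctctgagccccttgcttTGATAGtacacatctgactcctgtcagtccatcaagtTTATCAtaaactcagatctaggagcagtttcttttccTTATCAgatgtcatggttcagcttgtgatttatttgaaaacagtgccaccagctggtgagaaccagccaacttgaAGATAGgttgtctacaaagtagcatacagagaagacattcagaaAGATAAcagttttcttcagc
Fndc7 intron 2, chr3:108689167-108689433: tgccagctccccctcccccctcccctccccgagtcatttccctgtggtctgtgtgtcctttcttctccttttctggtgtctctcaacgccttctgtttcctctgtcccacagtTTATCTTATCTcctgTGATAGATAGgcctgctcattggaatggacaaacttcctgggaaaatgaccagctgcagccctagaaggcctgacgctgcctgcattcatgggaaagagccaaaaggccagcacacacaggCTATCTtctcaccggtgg
Aldh1a1 intron 9, chr19:20705661-20705846: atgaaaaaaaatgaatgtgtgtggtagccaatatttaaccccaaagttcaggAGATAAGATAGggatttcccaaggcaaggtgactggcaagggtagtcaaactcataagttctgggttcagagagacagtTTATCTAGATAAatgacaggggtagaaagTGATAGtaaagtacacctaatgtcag

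Sites without the tetramer GATA on either strand were rare, 56 of the 1106 (5.06%, 3.92 to 6.52). The leading 3 lay in Bcas3 (number 399), in Pde2a (number 473), a phosphodiesterase that degrades cyclic nucleotides, and in Amotl2 (number 503), an angiomotin family scaffold, and the central 120 bp of the first pair are shown because occupancy there was called with no motif in the peak.
Bcas3 intron 24, chr11:85589247-85589366: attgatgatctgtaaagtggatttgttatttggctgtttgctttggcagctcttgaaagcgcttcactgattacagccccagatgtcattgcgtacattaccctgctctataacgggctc
Pde2a intron 2, chr7:108602310-108602429: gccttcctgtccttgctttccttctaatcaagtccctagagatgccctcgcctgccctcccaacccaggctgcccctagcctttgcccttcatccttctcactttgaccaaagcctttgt

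Sites in genes with a known role in liver cells are shown next. They are the first in the list within each of several gene groups: Flt1, a receptor for vascular endothelial growth factor (VEGF), Ppara, the nuclear receptor that drives fatty acid oxidation, Nfia, a transcription factor of the nuclear factor I family, and Slc2a2, the glucose transporter of hepatocytes. The closest pair of later-intron sites, both in intron 10 of the VEGF receptor gene Kdr, follows them.
Flt1 intron 10, chr5:148469559-148469678: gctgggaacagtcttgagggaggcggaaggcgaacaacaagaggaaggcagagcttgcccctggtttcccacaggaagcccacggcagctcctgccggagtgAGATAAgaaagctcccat
Ppara intron 2, chr15:85604978-85605097: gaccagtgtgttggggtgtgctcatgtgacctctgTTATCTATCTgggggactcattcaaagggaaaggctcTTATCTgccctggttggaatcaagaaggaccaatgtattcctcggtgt
Nfia intron 2, chr4:97470696-97470815: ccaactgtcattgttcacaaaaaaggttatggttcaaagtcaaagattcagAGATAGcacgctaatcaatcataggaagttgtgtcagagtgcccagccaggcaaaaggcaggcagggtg
Slc2a2 intron 8, chr3:28620833-28620952: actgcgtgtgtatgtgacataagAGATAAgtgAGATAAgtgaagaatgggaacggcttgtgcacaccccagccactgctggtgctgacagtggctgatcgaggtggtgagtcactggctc
Kdr intron 10, chr5:76358346-76358465: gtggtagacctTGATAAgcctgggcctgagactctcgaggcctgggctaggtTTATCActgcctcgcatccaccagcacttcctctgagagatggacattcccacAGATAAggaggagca
Kdr intron 10, chr5:76357889-76358008: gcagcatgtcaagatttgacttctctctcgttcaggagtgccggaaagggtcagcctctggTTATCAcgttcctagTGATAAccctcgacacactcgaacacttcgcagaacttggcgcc

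The density of sites per megabase (Mb) of sequence compares later introns with the rest of the genome. Later introns held 1106 OS in 618.6 Mb, or 1.79 per Mb (Poisson 95% interval 1.68 to 1.90). First introns held 609 OS in 205.4 Mb, or 2.97 per Mb (2.73 to 3.21), and sequence outside genes held 1833 in 1561 Mb, or 1.17 per Mb (1.12 to 1.23). The density in later introns was 0.603 times that in first introns (95% interval 0.546 to 0.667, exact binomial test, two-sided, adjusted p = 6.09e-22) and 1.52 times that outside genes (1.41 to 1.64, adjusted p = 1.24e-26). These p-values and those of the other main comparisons were adjusted by the Benjamini-Hochberg method over 9 tests. The density tests took sites as independent, although some lay near each other. Sequence to which no read aligns singly was still counted in the Mb. The part of either in these values was not tested.

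Within the later introns, intron 2 stood apart. It held 335 sites in 125.9 Mb, or 2.66 per Mb (2.38 to 2.96), and its interval overlapped that of first introns. Introns 3 and later held 771 sites in 492.7 Mb, or 1.56 per Mb (1.46 to 1.68), and the density in intron 2 was 1.70 times higher (1.49 to 1.94, exact binomial test, adjusted p = 1.23e-14). Intron 3 had 1.88 sites per Mb (1.60 to 2.18), intron 4 had 1.58 (1.28 to 1.92) and intron 5 had 1.44 (1.12 to 1.82). From intron 4 on, the density ranged from 1.13 to 1.82 per Mb with overlapping intervals. Introns were numbered in the longest transcript only, and an intron 2 there can be the first intron of another transcript. With the first introns of every protein-coding transcript left out, 992 of the 1106 sites remained, and the ratio for intron 2 was not computed under that setting.

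**Figure D1:**
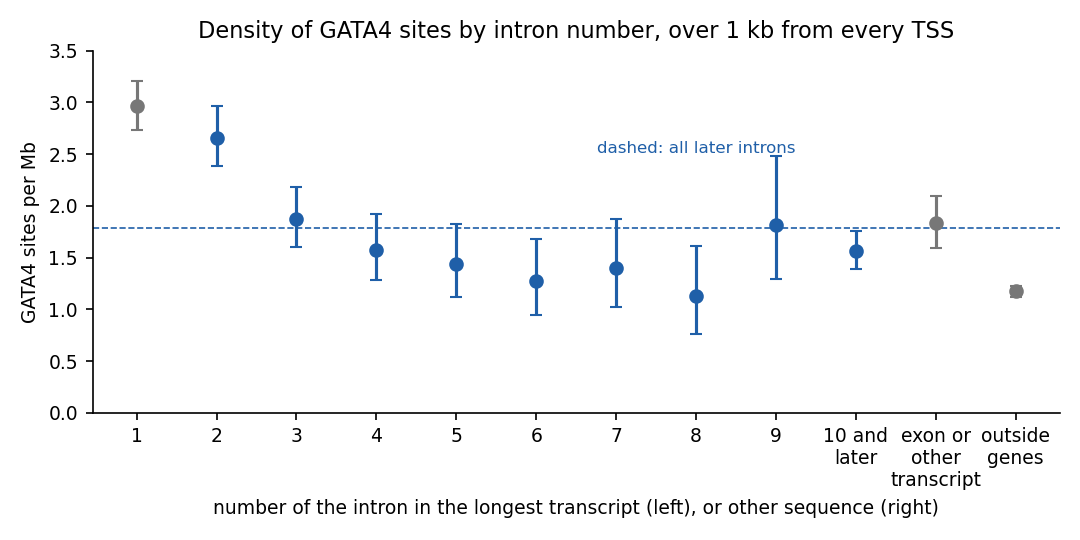
GATA4 sites per Mb (vertical axis) by the number of the intron in the longest transcript, with exonic and other transcribed sequence and sequence outside genes at the right; points are densities, bars are Poisson 95% intervals, grey points are sequence other than later introns and the dashed line is the density of all later introns (1.79 per Mb). Intron 2, at 2.66 per Mb, lies close to first introns, at 2.97, and above all introns after it.

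The comparison depended on how far the sequence lay from a TSS. At 1 to 10 kb from the nearest protein-coding TSS, intron 2 held 3.32 sites per Mb (2.75 to 3.97) and introns 3 and later 1.82 (1.53 to 2.15), a ratio of 1.82 (1.41 to 2.34, exact binomial test, adjusted p = 5.64e-06 over 9 tests). At 10 to 50 kb the values were 3.41 (2.91 to 3.96) and 1.86 (1.68 to 2.06), a ratio of 1.83 (1.52 to 2.20, exact binomial test, adjusted p = 2.04e-09). Beyond 50 kb, intron 2 held 1.21 per Mb (0.899 to 1.60) and introns 3 and later 1.19 (1.04 to 1.34), a ratio of 1.02 with an interval from 0.738 to 1.39. The distance classes were chosen after the data were seen, and the ratios were not tested against each other.

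The ratio to sequence outside genes was higher in the classes farther from a TSS. At 1 to 10 kb, later introns held 2.30 sites per Mb (2.03 to 2.60) and sequence outside genes 2.50 (2.27 to 2.75), a ratio of 0.920 (0.785 to 1.08, exact binomial test, adjusted p = 0.346). The ratio was 1.17 at 10 to 50 kb (1.04 to 1.31, exact binomial test, adjusted p = 0.0101) and 1.71 beyond 50 kb (1.49 to 1.95, adjusted p = 8.17e-13), where later introns held 1.19 per Mb and sequence outside genes 0.698. Against first introns the ratio was 0.616 at 1 to 10 kb (0.519 to 0.730), 0.728 at 10 to 50 kb (0.625 to 0.850) and 0.787 beyond 50 kb (0.599 to 1.05), the last of which did not pass the exact binomial test (adjusted p = 0.110).

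**Figure D2:**
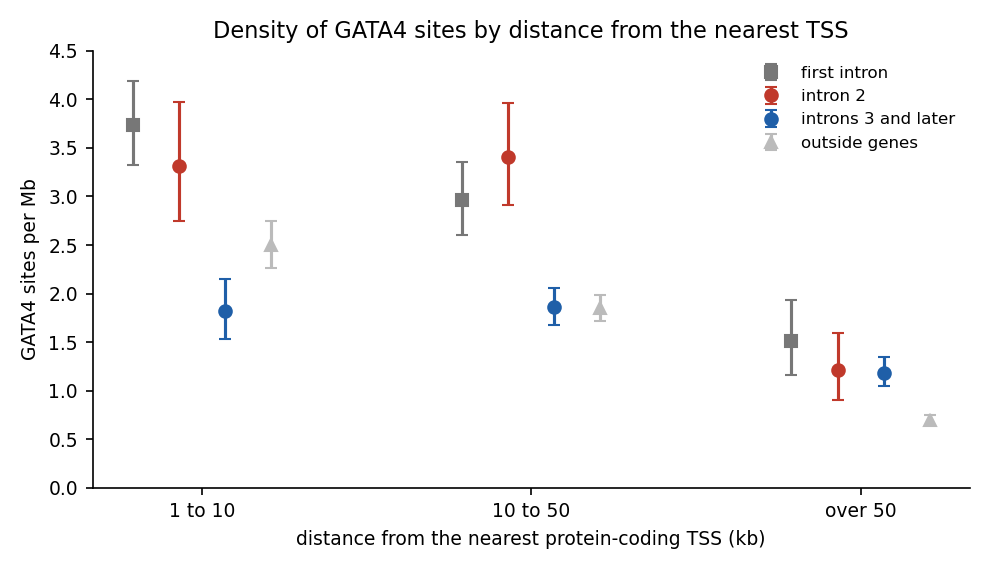
GATA4 sites per Mb (vertical axis) in 3 classes of distance from the nearest protein-coding TSS in kb (horizontal axis), for first introns, intron 2, introns 3 and later and sequence outside genes; points are densities and bars Poisson 95% intervals. Intron 2 lies above introns 3 and later up to 50 kb (3.32 against 1.82 and 3.41 against 1.86 per Mb) and level with them beyond it (1.21 against 1.19).

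Intron length and position within the intron varied widely. The introns with a site were 149 to 735947 bp long with a median of 13337 bp. Density was 1.36 per Mb (0.955 to 1.87) in introns under 1 kb, 2.13 per Mb (1.89 to 2.40) in those of 10 to 30 kb, and 0.959 per Mb (0.769 to 1.18) in those over 100 kb. The longest host introns were intron 7 of Gpc5 (735947 bp, site number 1091), intron 3 of Macrod2, intron 3 of Nrxn3, intron 2 of Cdh4 and intron 2 of Shisa9. Gpc5 encodes a cell-surface heparan sulphate proteoglycan and Nrxn3 a synaptic adhesion protein. Of 914 sites whose whole intron lay more than 1 kb from every TSS, 485 lay in its upstream 50% (53.1%, 49.8 to 56.3, exact binomial test, adjusted p = 0.103), so that no lean to one end of the intron was shown.

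Later-intron sites lay a median of 27404 bp from the nearest protein-coding TSS, with quartiles of 11225 and 53539 bp, and a median of 51437 bp from the TSS of the host's longest transcript. The nearest TSS belonged to the host in 826 sites and to another gene in 280 (25.3%, 22.8 to 28.0). That share rose to 36.1% when each gene was given only the TSS of its longest transcript. The site in Map3k3, for example, lay 24525 bp from the TSS of Limd2 and 50789 bp from that of its host, and the site in Ppara lay 38832 bp from its host's TSS. Nearest to the limit of 1 kb were sites in Rapgef3 (1019 bp), Akap13 (1127 bp) and Arl5c (1170 bp) on the inside, and sites in Eif3j (923 bp), Mtus1 (915 bp) and 3110082I17Rik (888 bp) on the outside. The limit removed 48 sites that lay in later introns otherwise.

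Few sites touched annotated exons, which follows largely from the rule, as each midpoint had to lie in an intron. The whole peak lay in the intron in 1072 sites (96.9%), 69 midpoints were within 200 bp of a splice site (6.24%, 4.96 to 7.82), and 28 fell in an exon of some other annotated transcript (2.53%). The widest sites were those in Ctif (573 bp, intron 9), in Adam19 (492 bp, intron 3), a membrane-bound metalloprotease gene, and in Eng (486 bp, intron 2), the coreceptor endoglin. The median width was 193 bp, against 189 bp for the other OS.

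WGATAR was the shared feature of these sites that the rule had not used. At least 1 match was present in 938 of 1106 sites (84.8%, 82.6 to 86.8), beside 82.9% of all common OS, and in 325 windows of equal width 5 kb to the right, whatever lay there (29.4%, 26.8 to 32.1). In 651 sites only the site held a match and in 38 only its window did (exact McNemar test, two-sided, adjusted p = 3.58e-144). The other OS held a match in 82.3% (80.9 to 83.5). The difference of 2.55 percentage points had an interval from -0.0171 to 4.95 and did not pass Fisher's exact test (adjusted p = 0.0948). First introns (87.2%) and sequence outside genes (83.9%) did not differ from later introns by Fisher's exact test either (adjusted p = 0.631 and 0.889 over 8 tests, intervals of the difference -5.68 to 1.13 and -1.85 to 3.56 percentage points).

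A single match was the commonest count: 168 sites had none, 524 had 1, 292 had 2, 100 had 3, 18 had 4 and 4 had 5 or more. The match nearest the midpoint lay a median of 18 bp from it, and 845 of 938 (90.1%) lay within 50 bp. This nearest match was spelled AGATAA in 461 sites (49.1%), TGATAA in 256 (27.3%), AGATAG in 141 (15%) and TGATAG in 80 (8.53%). Over all matches in the sites, AGATAA was at 45.4% and TGATAG at 10.3%. In the windows all 401 matches were counted and were spread more evenly, with AGATAA at 34.2% and TGATAG at 19.7%. The base just after the nearest match was G in 45.9% of sites, against 22.4% for all matches in windows. The base just before it was C in 38.7%, against 27.9%. These shares of spelling and flanking bases are descriptions without a test.

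**Figure D3:**
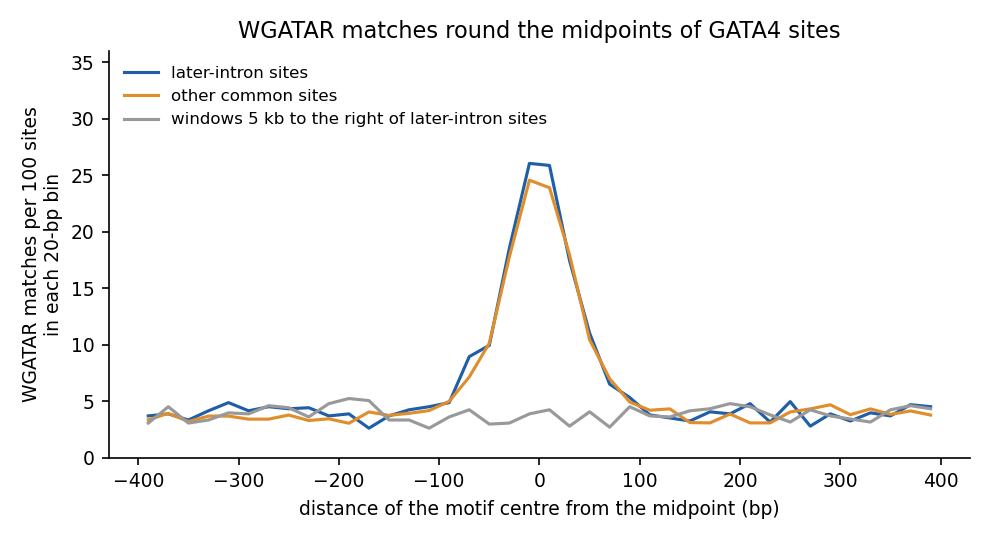
WGATAR matches per 100 sites in bins of 20 bp (vertical axis) by distance of the motif centre from the site's midpoint in bp (horizontal axis), for later-intron sites, other common sites and windows 5 kb to the right of later-intron sites. Both kinds of site peak at the midpoint, at 26.0 and 24.6 per 100 in the bin before it, while the windows stay at 2.62 to 5.24 per 100 throughout.

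The motif had no shown direction relative to the host gene. It lay on the host's strand in 484 of 938 sites (51.6%, 48.4 to 54.8, exact binomial test against 50%, adjusted p = 0.344). In sites with exactly 1 match the share was 54.4% (unadjusted p = 0.0492). Neighbouring matches within a site formed 563 pairs, of which 275 lay on the same strand (48.8%), 155 pointed away from each other and 133 pointed toward each other. The commonest distance between the starts of a pair was 5 bp, with 19 pairs, followed by 4 bp with 12. Both are shorter than the motif, so these matches share bases, as in Aldh1a1 (5 bp) and in Ppara (4 bp).

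Motifs of other liver factors were searched as exact matches on both strands in the sites, in the other OS and in the windows. A nuclear receptor half-site (AGGTCA) was present in 283 later-intron sites (25.6%) and 14.7% of windows (exact McNemar test, adjusted p = 1.55e-09 over 16 motifs). An ETS motif (AGGAAGT), the kind bound by the endothelial factor ERG, was present in 15.6% of sites and 6.69% of windows (exact McNemar test, adjusted p = 4.96e-10). The C/EBP motif TTGCNNAA stood at 13.3% against 8.05% (exact McNemar test, adjusted p = 0.000344), the FOXA motif TGTTTAC at 6.6% against 3.07% (adjusted p = 0.000713) and the HNF4 motif CAAAGTCC at 2.71% against 0.723% (adjusted p = 0.00151). C/EBP, FOXA and HNF4 are families of transcription factors of hepatocytes. These 5 of the 16 motifs passed, all higher in sites, and the same 5 passed among 9 against windows to the left. Matches were counted wherever they fell, bases shared with a WGATAR included, and a match does not show that the factor was there.

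The remaining 11 motifs did not pass the test against windows to the right. AP-1 (TGANTCA) was at 7.05% and 6.51%, the E-box (CANNTG) at 64.1% and 64.5%, TEAD (GGAATG) at 13.4% and 11.4%, SOX (ACAATGG) at 4.25% and 3.07%, KLF (GGGTGTGG) at 1.81% and 1.90%, HNF6 (ATCGATT) at 0.452% and 0.181%, and CRE (TGACGTCA) at 0.362% and 0.0904%. HNF1 stood at 0.814% and 0.452%, the GATA palindrome, which can share bases with WGATAR, at 1.45% and 0.542%, and the NFI and CTCF core patterns were in 0 sites, which allows a share of up to 0.346% (Wilson). Against windows to the left, TEAD (9.49% of windows, exact McNemar test, adjusted p = 0.0110), SOX (1.99%, adjusted p = 0.00817), HNF1 (0.0904%, adjusted p = 0.0382) and the GATA palindrome (0.0904%, adjusted p = 0.000879) passed as well, so that their calls depended on the side of the window. The sites had a median GC content of 48.7% and the windows 45.5%, and the part of this in the motif counts was not tested.

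Against the other OS, 0 of the 16 motifs passed Fisher's exact test after adjustment. At an unadjusted p under 0.05 there was 1, the E-box, at 64.1% in later introns and 59.1% in other OS (difference 5.04 percentage points, interval 1.72 to 8.28, Fisher's exact test, adjusted p = 0.0512). The half-site was at 25.6% and 23.8% (interval of the difference -1.13 to 4.77) and the ETS motif at 15.6% and 14.3% (-1.05 to 3.86).

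The files carry a score of 1000 for every peak, so sites were ordered by their number in the common list. In the comparison of replicates, the order of SPP peaks came from their signal value per the methods, and whether the deposited numbers keep that order is not given in the sources used here. Later-intron sites were 23.9%, 25.9%, 24.6% and 25.9% of the 4 successive parts of the list, and 264 of 1106 stood among the leading 1103 (23.9%, 21.5 to 26.5), beside 25% of all common OS by construction. The other OS stood there in 25.4% (difference -1.53 percentage points, interval -4.38 to 1.45, Fisher's exact test, adjusted p = 0.344). By the number of the overlapping MACS2 peak, 31.5% of later-intron sites and 34.5% of the other OS stood in the leading 1467 of the MACS2 list (unadjusted p = 0.0612, Fisher's exact test). Over the same parts the share of OS within 1 kb of a TSS went from 12.6% to 17.8% and that outside genes from 45.5% to 36.5%. Among later-intron sites the share with WGATAR fell from 92.4% (88.6 to 95) in the leading part to 86.4%, 83.0% and 77.9% (72.7 to 82.3) in the next ones, and among the other OS it was 89.4%, 83.7%, 79.2% and 76.6%. In no part did later-intron and other OS differ by Fisher's exact test (unadjusted p from 0.158 to 0.684). Matches were counted over the whole peak, and the median width of later-intron sites was 224, 160.5, 150 and 320 bp in the 4 parts. The part of width in these shares was not tested.

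The leading later-intron sites lay in genes of many functions. Number 2 was in intron 6 of Map3k3, which held another, number 4374, in intron 5, number 7 in intron 2 of Pdlim5 (a cytoskeletal scaffold), number 9 in intron 9 of D17H6S56E-3, and number 12 in intron 4 of Mosc2. Number 20 was in intron 13 of Bmper, number 29 in intron 2 of Ggnbp2, number 31 in intron 2 of Ypel2 and number 36 in intron 7 of Fam35a. Number 39 was in intron 8 of Ddc, which encodes DOPA decarboxylase, number 42 in intron 2 of Ppara, number 43 in intron 3 of Adk (adenosine kinase), number 51 in intron 11 of Anxa9 (an annexin), number 56 in intron 2 of Sept9 (a septin) and number 61 in intron 32 of Myo5b (a motor of vesicle transport). All of these held at least 1 WGATAR, with 4 in D17H6S56E-3 and 4 in Ppara, beside a share of 92.4% among later-intron sites in the leading 1103.

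The sites lay in 837 host genes, 4.86% of the 17218 genes with eligible later-intron sequence. Host genes were long: their longest transcripts spanned a median of 88062 bp, against 21146 bp for all genes with a later intron. A longer gene offers more sequence in which a site can meet the rule, and the part of this in the contrast was not tested. A single site was held by 658 hosts, 2 by 116, 3 by 44 and 4 or more by 19, 448 sites (40.5%) lay in a host with more than 1, and 4 sites lay in introns of 2 hosts. Hosts also carried OS elsewhere: 88 of 837 (10.5%, 8.61 to 12.8) had one in their first intron, against 469 of 16381 genes without a later-intron site (2.86%, 2.62 to 3.13), and 39 (4.66%, 3.43 to 6.31) had one within 1 kb of a TSS of their own, against 579 (3.53%, 3.26 to 3.83). Hosts and other genes differ in length, and the part of length in these shares was not tested.

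Exoc6b, a subunit of the exocyst that tethers vesicles to the membrane, and Vps13d, a lipid transfer protein, held 6 sites each. The 6 sites of Exoc6b lay in introns 8 and 20, all with WGATAR, and stood at numbers 570, 1763, 1885, 2119, 2150 and 4155. Those of Vps13d lay in introns 59, 64, 66 and 67 of 68, within 82025 bp, and 5 of 6 had WGATAR. Frmd4b (a membrane scaffold), Bcas3, Hecw2 (a ubiquitin ligase) and Ptprr (a receptor-type tyrosine phosphatase) held 5 each. Hecw2 had 4 of its 5 in intron 2. A host is only the gene in which a site lies. Numbers 1655, 2040 and 2147 in Ptprr lay nearest a TSS of Ptprb, and numbers 570, 1763, 2119 and 4155 in Exoc6b nearest one of Cyp26b1. The remaining sites of Ptprr and Exoc6b lay nearest a TSS of their host.

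The hosts with 4 sites were Clec16a, Plxnc1, Zbtb16, Ankrd44, Erg, Masp1, A930011G23Rik, Rgl1, Prkce, Meis2, Rapgef5, Maml3 and Man1a. All 4 sites of Zbtb16, a zinc finger transcription factor, stood in the leading 1103 (numbers 93, 575, 697 and 996), and so did all 4 of Erg, the endothelial ETS factor (numbers 352, 510, 519 and 563). Numbers 352 and 519 of Erg lay 704 bp apart under 1 peak of the MACS2 list. Masp1, a protease of the lectin pathway of complement, held its 4 in intron 2 within 8616 bp. Maml3, a Notch coactivator, also held 4 in intron 2, within 35823 bp, and Man1a, a mannosidase of the Golgi, held 4 there within 35361 bp, of which 2 had WGATAR. Plxnc1 is a semaphorin receptor, Meis2 a homeobox factor, Prkce a protein kinase C, Rgl1 and Rapgef5 exchange factors of small GTPases, and Ankrd44 a regulatory subunit of protein phosphatase 6.

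**Figure D4:**
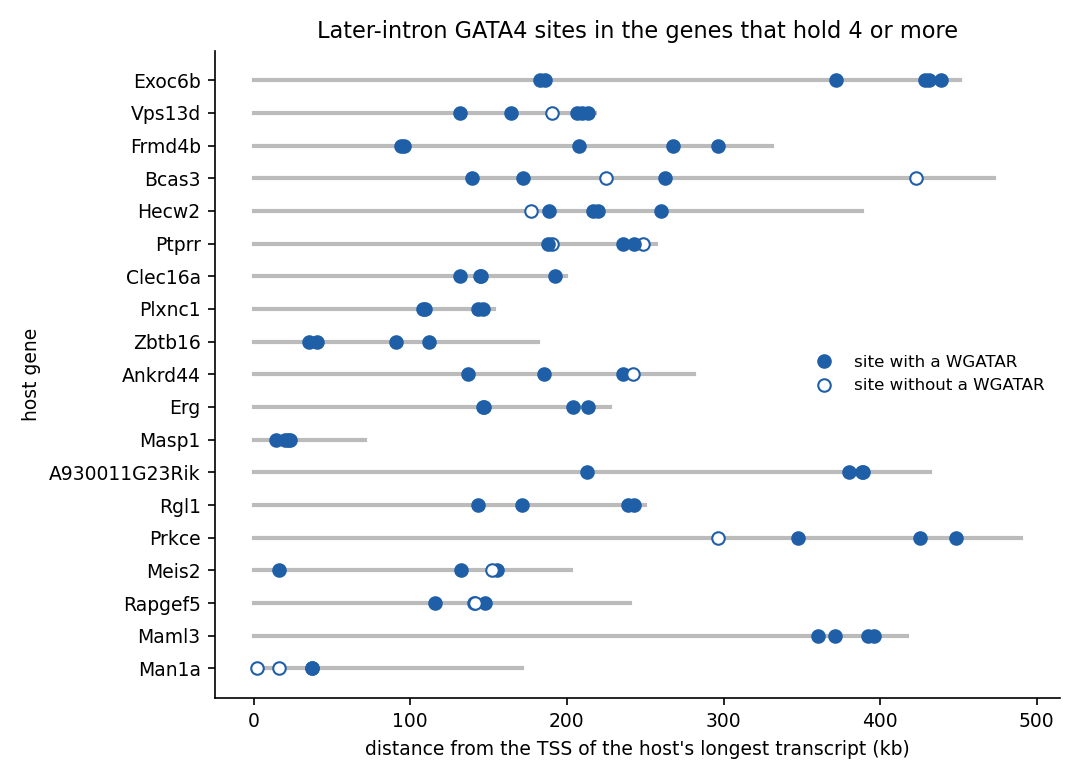
Later-intron GATA4 sites in the 19 genes with 4 or more, by distance from the TSS of the host's longest transcript in kb (horizontal axis); grey lines span the gene, filled points are sites with a WGATAR and open points sites without one. Sites lay close together in some of these genes, as in Masp1 (4 sites within 8616 bp) and Vps13d (6 within 82025 bp).

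Nearness to other sites did not differ from the rest of the list beyond the test. Another OS of any kind lay within 10 kb of 238 later-intron sites (21.5%, 19.2 to 24.0), beside 19.8% of all common OS, and within 10 kb of 19.2% of the other OS (difference 2.29 percentage points, interval -0.406 to 5.13, Fisher's exact test, adjusted p = 0.126). Within 2 kb the shares were 5.06% and 6.21%. Later-intron sites shared their intron with another in 222 cases (20.1%, 17.8 to 22.5), and 12 pairs of neighbours lay within 1 kb. The closest were numbers 262 and 2353 in intron 10 of Kdr, 457 bp apart, then a pair in intron 5 of Lrp5 (476 bp), a coreceptor of Wnt signals, and one in intron 2 of Man1a (511 bp). The pairs in Kdr and Lrp5 each lay under 1 peak of the MACS2 list, as did 10 later-intron sites in all. Lrp5 and the pairs were chosen after their values were seen.

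Gene groups were compared by their share of genes with a later-intron site, beside the 4.86% of all genes, and by density, beside the 1.79 sites per Mb of all later introns. The list of sinusoidal endothelial genes stood highest on both scales: 20 of 44 held a site (45.5%, 31.7 to 59.9), with 36 sites in 2.28 Mb, or 15.8 per Mb (11.1 to 21.9). That list also holds genes of endothelium in general, such as Pecam1 and Vwf. The lists were written with earlier results of these data known, and their shares are descriptions without a test. The 36 sites comprised 30 with WGATAR, beside 84.8% of all later-intron sites. Numbers 262 and 2353 in Kdr shared 1 MACS2 peak, as did numbers 352 and 519 in Erg, and each was counted as a site.

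Among the receptors of VEGF and angiopoietin, Flt1 held sites in intron 10 (number 81) and intron 25, Kdr 2 sites in intron 10 and 1 in intron 27, Nrp1 (neuropilin, a coreceptor of VEGF) sites in introns 2 and 12, and Tek, the angiopoietin receptor, 1 in intron 11 without WGATAR. The scavenger receptor gene Stab2 held 2 sites in intron 3 (numbers 200 and 592) with 4 and 2 matches. Erg held 4 sites, Meis2 4 and Bmp6, a BMP that sinusoidal endothelium secretes to control hepcidin, 3 in intron 2 (numbers 1702, 2963 and 3431), of which 1 had WGATAR.

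Sites in surface proteins of endothelium included those of Eng (number 201, intron 2), Notch1 (number 407, intron 15), Pecam1 (introns 13 and 15), Vwf (introns 6 and 10, von Willebrand factor) and Calcrl (introns 2 and 8, a receptor of adrenomedullin). Eng held 3 WGATAR matches in 486 bp. Ptprb, Mrc1, Clec4g, Dnase1l3, Nrp2, Wnt2 and Acvrl1 held 1 site each. At least 1 site in the leading 1103 was present in 8 of the 20 genes, beside 242 of all 837 host genes. The number of sites per gene was not matched in this comparison.

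Genes of the other non-parenchymal cells had shares whose intervals cover that of all genes. None of 23 genes of Kupffer and blood cells held a site (0 of 23, Wilson upper limit 14.3%; 0 sites in 0.637 Mb, Poisson upper limit 5.79 per Mb). Of 25 stellate cell genes, 1 did (0.710 to 19.5%), Col4a1, a basement membrane collagen that endothelial cells also make, with sites 521 and 2193 in intron 2. The 2 sites of that list gave 0.973 per Mb (0.118 to 3.52), an interval that covers the density of all later introns.

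Transcription factors of liver were the second group, with 8 of 19 genes (42.1%, 23.1 to 63.7) and 12 sites in 1.93 Mb, or 6.22 per Mb (3.21 to 10.9). Nfia held 3 sites (numbers 222, 2611 and 3899, introns 2, 2 and 10) and Nfib 2 (introns 2 and 10), both of the nuclear factor I family. Tcf7l1, a repressor of Wnt targets, held 2 in intron 3, and Creb3l3, a hepatic regulator of lipid genes, 1 in intron 2 (number 443). Hnf4a, Zbtb20 and Cux2 held 1 each, beyond the leading 1103. Of the 12 sites, 11 had WGATAR, beside 84.8% of all later-intron sites.

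Of the nuclear receptors and coregulators, 8 of 35 genes held 1 site each (22.9%, 12.1 to 39.0; 3.29 per Mb, 1.42 to 6.47). In the leading 1103 stood those of Ppara (number 42) and of Ppargc1a (number 769, intron 2), the coactivator of mitochondrial and gluconeogenic genes. Further sites lay in Nr5a2, Rxra, Pparg, Esrrg and Rara, and 7 of the 8 sites had WGATAR, beside 84.8% of all later-intron sites. Of the GATA and FOG factors, 1 of 7 held a site, Gata2 in intron 4 (number 3808).

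In TGF-beta and BMP signalling, 7 of 32 genes held 8 sites (21.9%, 11 to 38.8; 5.62 per Mb, 2.43 to 11.1). Among receptors these were Tgfbr2 (number 886, intron 4, without WGATAR), Tgfbr3 (betaglycan), Acvr1, Acvrl1 and Eng, and among intracellular inhibitors Smad6 (2 sites in intron 3) and Smurf1. Acvrl1 and Eng were counted in the endothelial list as well.

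Genes of metabolism were counted in 3 lists. Of 36 genes of glucose metabolism and insulin signalling, 5 held a site (13.9%, 6.08 to 28.7, and 5.43 per Mb, 2.18 to 11.2). All 7 sites had WGATAR, beside 84.8% of all later-intron sites. Slc2a2, counted among the solute carriers as well, held 3, in introns 8 (number 533), 2 and 4, with 2, 3 and 1 matches, and Insr, the insulin receptor, 1 in intron 2 (number 556). Of 57 genes of lipid and bile acid metabolism, 6 held 1 site each (10.5%, 4.91 to 21.1; 3.89 per Mb, 1.43 to 8.46), the leading one in Scap, the escort of sterol regulatory factors (number 649, intron 3). Of 97 cytochrome P450 genes, 1 held a site, Cyp4f39 (1.03%, 0.182 to 5.61; 0.575 per Mb, 0.0146 to 3.21).

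Transporters were the largest group by count. Of 345 solute carrier genes, 27 held 34 sites (7.83%, 5.43 to 11.1; 3.11 per Mb, 2.2 to 4.35). In the leading 1103 stood Slc25a48 (number 107), Slc37a3 (number 308), Slc25a15 (number 353), the mitochondrial ornithine carrier of the urea cycle, Slc36a1 (number 400), Slc2a2 (number 533), Slc38a11 (number 584) and Slc25a25 (number 981). Slc12a8, Slc1a2, Slc43a2, Slc4a4 and Slc9a9 held 2 sites each. Of the ABC transporters, 6 of 49 genes held 7 sites (12.2%, 5.73 to 24.2; 2.30 per Mb), with Abca4 (number 208) in the leading 1103 and Abcc4 holding 2.

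Of 26 genes of growth factor and cytokine signalling, 3 held a site (11.5%, 4.0 to 29.0; 1.63 per Mb), namely the receptor genes Lifr (number 279) and Kit and the kinase gene Jak1 (number 686). Genes of very long introns that act in brain were listed as well, and symbols with several gene models were counted by model. Of 46 gene models, 7 held a site (15.2%, 7.57 to 28.2), above the share of all genes. Their 33.4 Mb of later introns gave 0.210 per Mb (0.0843 to 0.432), below the density of all later introns. The part of length in these values was not tested. Odz2 (number 191) and Gpc5 (number 1091) stood in the leading 1103.

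**Figure D5:**
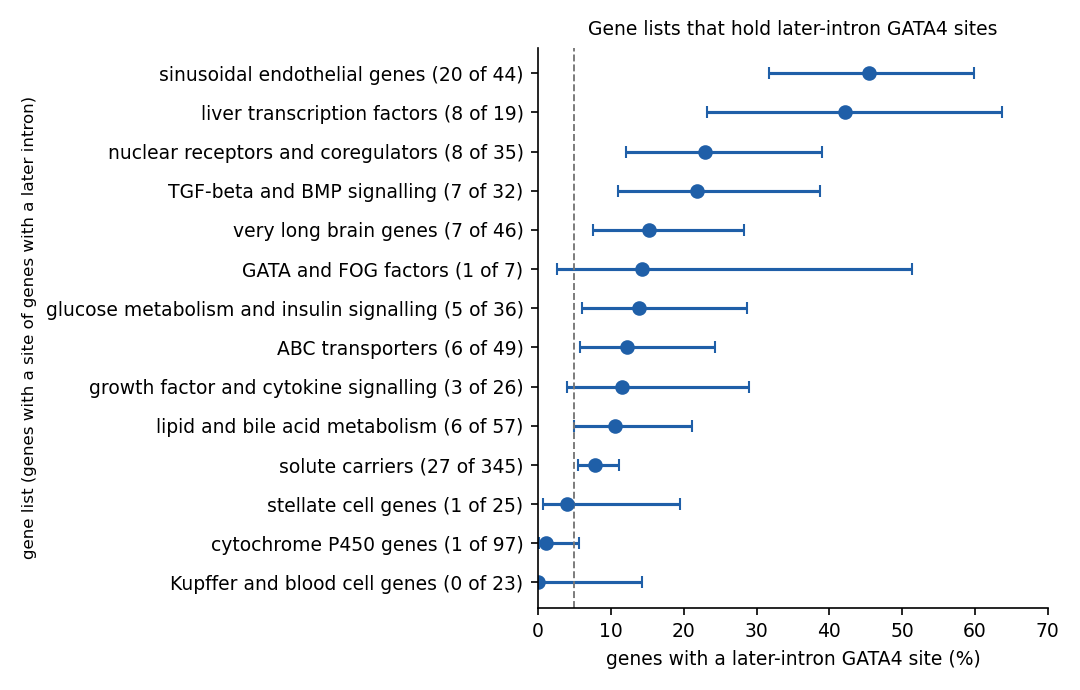
Share of genes with a later-intron GATA4 site in percent (horizontal axis) for each of 14 gene lists, with the counts in the labels; points are shares, bars Wilson 95% intervals and the dashed line the 4.86% of all genes with a later intron. Sinusoidal endothelial genes (45.5%) and liver transcription factors (42.1%) stand highest and Kupffer and blood cell genes (0%) lowest.

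The motifs of other factors were counted within these groups after their values in all sites were seen, with no test. The ETS motif was in 5 of 36 sites of the endothelial genes (13.9%, 6.08 to 28.7), beside 15.6% of all later-intron sites, and in 5 of 8 sites of the TGF-beta and BMP genes. The nuclear receptor half-site was in 11 of 36 endothelial sites (30.6%, 18.0 to 46.9), 11 of 34 solute carrier sites (32.4%, 19.1 to 49.2) and 3 of 8 sites of nuclear receptor genes, beside 25.6% of all. The E-box was in 17 of 36 endothelial sites (47.2%, 32.0 to 63.0) and 27 of 34 solute carrier sites (79.4%, 63.2 to 89.7), beside 64.1% of all. The HNF4 motif was in 0 of 36 endothelial sites (Wilson upper limit 9.64%), a share that covers the 2.71% of all sites.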

How the data were processed

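GATA4 ChIP and input DNA of adult mouse liver were each 1 labelled sample, and only the ChIP sample had files. Per the labels and the study's methods, the authors aligned reads to mm9 with Bowtie 0.12.7, retained reads with a single alignment, and ran MACS2 2.0.10 and an altered SPP on the replicates singly and merged, with merged input as background. Peaks were thresholded by reproducibility between replicates (IDR), and the authors intersected the lists with bedtools 2.16.1. The deposited values are peak positions and a score, which the authors set to 1000 in every row, so the number of a site in its list replaced the score in the planned comparison of strength. Coordinates were made 1-based. Genes were those of GENCODE M1 on NCBI Build 37, the build of mm9, in place of RefGene, with 51733 protein-coding transcripts of 22378 genes. The longest transcript was that with the greatest summed exon length.

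Motifs were matched exactly on both strands of the whole peak. Shares have Wilson, differences of shares Newcombe and densities Poisson intervals at 95%, and tests were exact (binomial, Fisher, McNemar) and two-sided with Benjamini-Hochberg adjustment at 0.05. Named were the first 15 sites by number, genes with 4 or more sites, the 3 widest sites, the 5 with most WGATAR, the first 3 without GATA, the 5 in the longest introns, and list genes with 2 or more sites or one in the leading 1103. Other names, such as list genes with 1 site further down the list, were chosen after their values were seen. The sites, gene lists and motifs were chosen with earlier results of these data known. There were 64 alternatives, of which 9 were added after the data were seen. Python 3.11.15 with numpy 2.4.6, scipy 1.17.1 and matplotlib 3.10.9 was used, and the code was tested on simulated data. Read depth was not analysed here, and the values of a few genes and of 1 gene list are not reported here.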

Additional observations from a re-analysis of the deposited data

How the results depend on the processing

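The lists hold 1 set of peaks with no value per replicate, so no setting could leave out a replicate. No paired analysis was possible because the groups share fewer than 2 replicate numbers and only 1 of them has a file. Of 64 alternatives, 50 kept the direction and side of the threshold, or stayed within the interval, of the value reported. The share of OS in later introns moved to 23.8% with the TSSs of all annotated transcripts, to 26.6% with the longest transcript by genomic span and to 22.5% with the first introns of all protein-coding transcripts left out. The difference in WGATAR from the other OS passed the test under the last 2 of these (3.11 and 3.08 percentage points) and with 1 site per gene (2.93), at unadjusted p. It did not pass against only those other OS more than 1 kb from every TSS, where it was 0.0816 percentage points. The site kept per gene was the first in the list, and the share with WGATAR was higher in the leading part. With 1 site per gene, again the first of its gene in the list, the difference in the leading part of the list turned to 3.51 percentage points. The share of WGATAR on the host's strand passed without adjustment in sites with exactly 1 match (54.4%). The difference in sites with a neighbour turned to -1.14 percentage points within 2 kb. By distance from a TSS, the ratio to sequence outside genes turned to 0.920 at 1 to 10 kb, and beyond 50 kb the ratios to first introns (0.787) and of intron 2 to later ones (1.02) did not pass. The share of sites nearer to another gene's TSS moved to 36.1% with 1 TSS per gene, and the count of companion motifs above windows from 5 to 9 with windows to the left. The cause was not tested for any of these changes.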
